A study of Arabidopsis thaliana with 15 samples.

Results

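The nuclear genes of the photosynthetic light reactions that encode antenna proteins and photosystem subunits were followed across 5 genotypes. The list is given by locus identifier and uses no measured value, though it was drawn up with earlier results of these data known. It comprised 43 of the 33326 genes in the table, namely 6 LHCA and 15 LHCB genes (21 antenna genes), 12 genes for photosystem I subunits and 10 genes for photosystem II subunits. All 43 passed the filter on low values. The material was dissected inflorescence meristems of Arabidopsis thaliana, that is, shoot apices cut soon after bolting with the open flowers removed, so that younger buds can be present. The groups were the wild type Col-0, the single mutants myb3r1 and myb3r4, the double mutant myb3r1myb3r4, with pMYB3R4::GFP-MYB3R4mNES, a transgenic line (the mNES line below). The mNES line carries a GFP-tagged MYB3R4 driven by the MYB3R4 promoter. The labels give no allele for the mutants, do not spell out mNES and do not name the background that carries the transgene. MYB3R1 and MYB3R4 are MYB transcription factors known as regulators of mitotic genes. Each group had 3 libraries, and each library was made from a pool of 36 meristems of plants grown under 16 h of light and 8 h of dark. Light was 170 µmol per square metre per second, with 21 °C by day and 17 °C by night, in all groups. Where the 3 pools of a group came from is not stated in the labels (a shift experiment number, unexplained, equals the replicate number), and p-values therefore measure only how these libraries vary.

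Light-harvesting chlorophyll a/b proteins bind chlorophyll and pass the absorbed energy to the reaction centres of the photosystems. LHCA proteins surround photosystem I, LHCB1, LHCB2 and LHCB3 form the trimers of the major antenna, and LHCB4, LHCB5 and LHCB6 are monomers that connect these trimers to photosystem II. All are made in the cytosol from nuclear genes, and in leaves those genes are well known for their response to light, the circadian clock and the state of the chloroplast. Values below are TPM, a level corrected for transcript length and scaled to the same total in every library, and differences are log2 fold changes of TPM + 0.5 with the standard error (SE) of a limma model over all genes. A gene is said to have risen or fallen where its p-value, adjusted over the 21737 genes tested, was under 0.05.

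The libraries were alike in the number of genes detected. Between 20370 and 20965 genes reached 1 TPM in a library. Replicate libraries correlated at 0.985 to 0.988 across genes (Pearson, log scale), and libraries of different groups at 0.906 to 0.984. MYB3R4 stood at 10.4 to 12.8 TPM in Col-0, and the mNES libraries had 58.9 to 63.5 TPM. MYB3R1 was higher, not lower, in myb3r1 (17.2 to 18.1 TPM against 13.1 to 13.5 TPM in Col-0), and MYB3R4 was not lower in myb3r4 (12.7 to 13.4 TPM), so transcript level did not mark the mutants. Of the meristem markers, STM was present at 44.2 to 62.0 TPM and WUS at 6.73 to 16.9 TPM, while CLV3 was at or near 0 in every library, with a highest value of 0.275 TPM.

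LHCB1, the main protein of the major antenna, has 5 gene copies in 2 tight clusters. LHCB1.2 (AT1G29910), LHCB1.1 (AT1G29920) and LHCB1.3 (AT1G29930) lie within chr1:10472280-10479114, with 1153 and 1915 bases between neighbours, and LHCB1.5 (AT2G34420) and LHCB1.4 (AT2G34430) lie back to back within chr2:14522524-14525918, 1038 bases apart (RefSeq annotation of TAIR10.1). A stretch of 120 coding bases of each copy is shown because it makes plain how much of their sequence, and so of their reads, the copies share. It covers coding bases 115 to 234 of LHCB1.1, LHCB1.2 and LHCB1.3, 112 to 231 of LHCB1.4 and 109 to 228 of LHCB1.5, 5′ to 3′. Capitals mark bases that differ from LHCB1.3.
LHCB1.1: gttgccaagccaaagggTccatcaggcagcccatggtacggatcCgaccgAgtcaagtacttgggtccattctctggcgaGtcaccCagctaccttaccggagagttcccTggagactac
LHCB1.2: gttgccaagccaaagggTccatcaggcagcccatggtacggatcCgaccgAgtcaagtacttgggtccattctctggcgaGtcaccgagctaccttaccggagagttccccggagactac
LHCB1.3: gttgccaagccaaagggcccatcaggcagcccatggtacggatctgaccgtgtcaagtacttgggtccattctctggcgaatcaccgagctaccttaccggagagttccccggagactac
LHCB1.4: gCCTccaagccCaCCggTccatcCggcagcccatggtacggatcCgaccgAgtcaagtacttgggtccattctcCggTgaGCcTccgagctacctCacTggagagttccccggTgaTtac
LHCB1.5: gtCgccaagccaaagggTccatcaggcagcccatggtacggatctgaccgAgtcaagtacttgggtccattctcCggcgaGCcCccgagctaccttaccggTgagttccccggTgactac
Within this stretch LHCB1.2 differed from LHCB1.3 at 4 bases, LHCB1.1 at 6, LHCB1.5 at 9 and LHCB1.4 at 19. Over the whole coding sequence the copies were 87.0% to 96.4% identical. Of all stretches of 31 bases in their transcripts, 23.5% (LHCB1.4) to 38.6% (LHCB1.3) occurred in another gene, and the closest gene was in each case another LHCB1. The LHCB2 copies LHCB2.1 and LHCB2.2 were 91.1% identical and shared 31.2% and 39.4% of such stretches. LHCB2.3 shared 39.9%, most of it with the neighbouring locus AT3G27700. The sums over the LHCB1 and LHCB2 copies are therefore given beside the single copies, whose separate values are less certain.

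In Col-0 the 43 genes together made up 3.75%, 3.76% and 3.86% of all transcripts in the 3 libraries. LHCB1.3 was the most abundant at 5125 ± 45.8 TPM (SD, n = 3), followed by PSBR at 1786 ± 74.7 TPM and LHCB5 at 1475 ± 55.3 TPM. LHCB1.3 was clear of all others, and PSBR of those after it, but the next places were not distinct, since the LHCB5 libraries (1418 to 1528 TPM) overlapped those of PSAO (1412 to 1505 TPM), which in turn overlapped those of PSAL (1343 to 1427 TPM). The least abundant were LHCB2.3 at 54.7 ± 3.22 TPM, LHCA6 at 54.1 ± 3.69 TPM and LHCB7, a scarce relative of the antenna genes, at 9.64 to 10.9 TPM. LHCB1.3 supplied 69.1% of the summed LHCB1 transcripts, LHCB1.5 17.3%, LHCB1.2 8.04%, LHCB1.1 4.19% and LHCB1.4 1.41%.

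Every group other than Col-0 had less antenna transcript. The antenna genes summed to 1.66% to 1.73% of transcripts in the Col-0 libraries, 1.16% to 1.24% in myb3r1, 1.08% to 1.15% in myb3r4, 1.06% to 1.14% in the double mutant and 1.19% to 1.36% in the mNES line. None of the 4 ranges reached that of Col-0. The photosystem subunit genes summed to 2.08% to 2.13% in Col-0, 1.88% to 1.97% in myb3r1, 1.88% to 1.93% in myb3r4, 1.64% to 1.72% in the double mutant and 1.90% to 1.99% in the mNES line. These ranges also stayed below Col-0, and those of the double mutant lay below all the others.

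**Figure D1:**
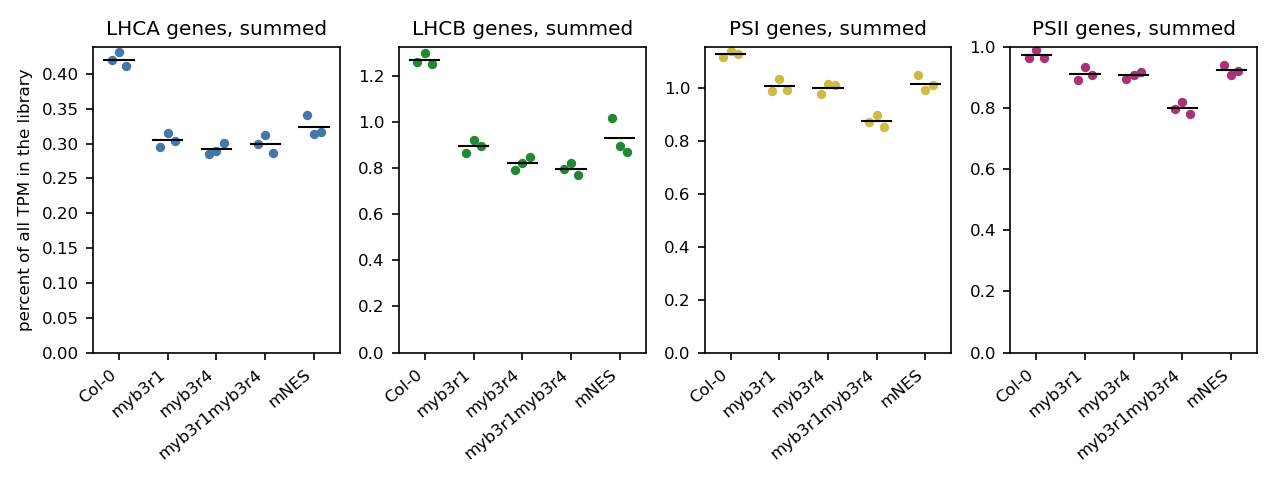
Summed TPM of the LHCA, LHCB, photosystem I (PSI) and photosystem II (PSII) genes as a percent of all TPM in a library (vertical axes start at 0). Points are libraries, 3 per group, and lines are group means; the mean for LHCB genes was 1.27% in Col-0 and between 0.795% and 0.929% in the other groups.

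In myb3r1, 28 of the 43 genes fell against Col-0 and 1 rose, where 6.26% of all genes tested were called (3.1% lower, 3.16% higher). The median log2 fold change of the 43 was -0.18, against 0.01 over all genes tested. By role, 17 of 21 antenna genes fell and 1 rose (median -0.46), and 11 of 22 photosystem subunit genes fell (median -0.14). In myb3r4, 29 fell and 1 rose, against 7.59% of all genes called (3.04% lower, 4.55% higher), with a median of -0.21 against 0.00 over all genes. Again 17 antenna genes fell and 1 rose (median -0.59), beside 12 subunit genes (median -0.15). The 4 comparisons with Col-0 use the same 3 Col-0 libraries, so they are set side by side and not counted as separate evidence.

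In the double mutant 40 of the 43 fell and 1 rose, but 41.6% of all genes were called there (17.1% lower, 24.5% higher), and the medians were -0.40 for the 43 and 0.05 for all genes. The antenna genes had a median of -0.52, with 19 lower, and the subunit genes one of -0.32, with 21 lower. In the mNES line 29 fell and 2 rose against a background of 17% (9.39% lower, 7.6% higher), with a median of -0.16 against -0.03 over all genes. There 17 antenna genes fell and 1 rose (median -0.51), and 12 subunit genes fell and 1, PSBS, rose (median -0.12). Small differences are called more readily in abundant genes. Among the 1713 genes with a mean of at least 100 TPM, a level chosen after the values were seen, 5.2% were called lower and 7.71% higher in myb3r1, 4.73% and 10% in myb3r4, 27.4% and 32.5% in the double mutant, and 13.8% and 14.9% in the mNES line. In either direction these came to 12.9%, 14.8%, 59.8% and 28.7%. The test over all 5 groups at once called 42 of the 43 genes, all but LHCB7, and 55.9% of all genes.

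**Figure D2:**
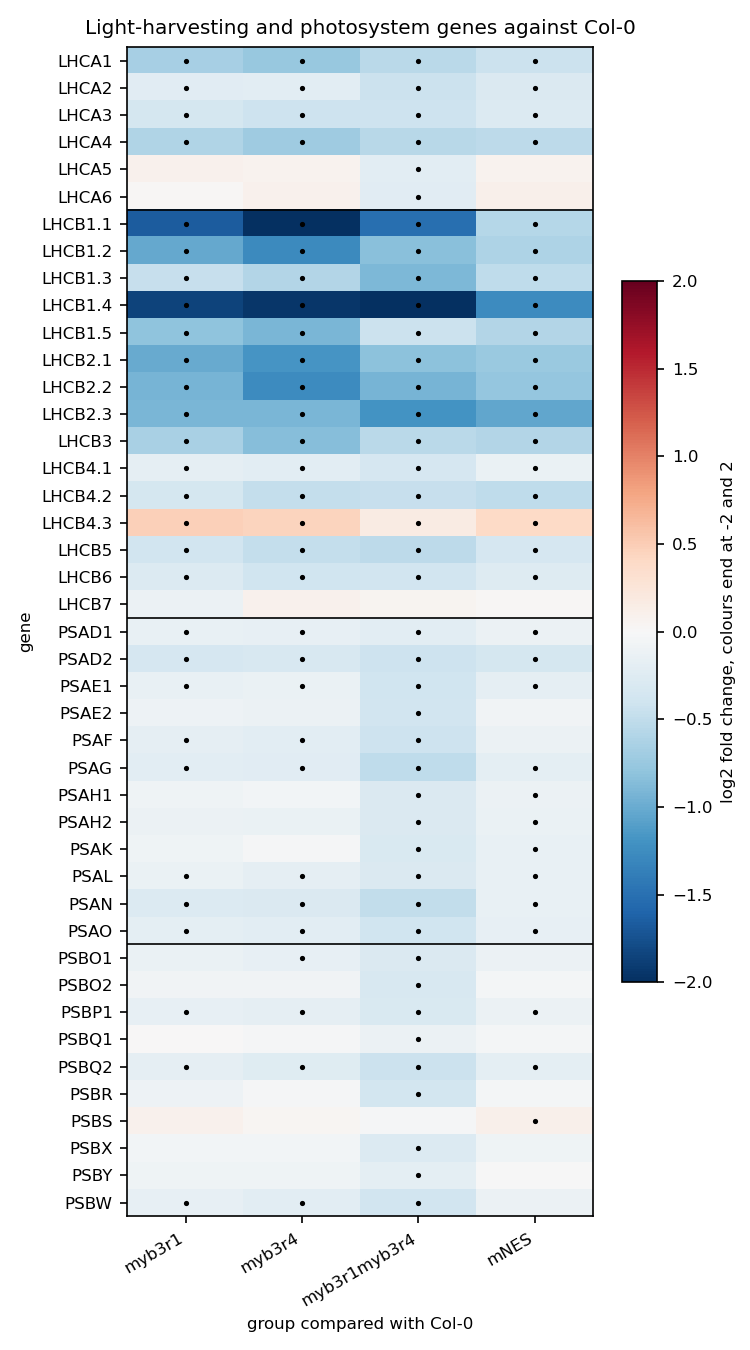
Log2 fold change of each of the 43 genes in the 4 groups compared with Col-0 (blue lower, red higher, colours end at -2 and 2). Dots mark an adjusted p under 0.05 in limma; the deepest blue is among the LHCB1 and LHCB2 genes, LHCB4.3 is red in all 4 columns, and most photosystem genes are palest outside the double mutant.

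The number of subunit genes called rested on single libraries more than that of antenna genes. With each library left out in turn, 16 or 17 antenna genes fell in myb3r1, 17 in myb3r4, 19 in the double mutant and 16 or 17 in the mNES line. Over the same refits, between 2 and 11 subunit genes fell in myb3r1, 7 to 12 in myb3r4, 21 in the double mutant and 6 to 15 in the mNES line. The 2 in myb3r1 came without Col-0 replicate 2, where 18 of the 43 fell in all. There 3.06% of all genes were called, against 6.26% with all libraries. The 7 in myb3r4 came without myb3r4 replicate 1 and the 6 in the mNES line without mNES replicate 2. Under both other scalings of the libraries 6 subunit genes fell in the mNES line.

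The 8 copies of the major antenna genes LHCB1 and LHCB2 included the gene with the largest fall in each comparison, LHCB1.4 in myb3r1, the double mutant and the mNES line and LHCB1.1 in myb3r4. Not every copy fell by more than the other antenna genes: in myb3r1 LHCB1.3 (-0.46) fell by less than LHCA1 (-0.66) and LHCB3 (-0.65), and in the double mutant LHCB1.5 (-0.43) fell by less than LHCA1 (-0.55). All 8 fell in each of the 4 comparisons, with median log2 fold changes of -0.97 in myb3r1, -1.22 in myb3r4, -0.92 in the double mutant and -0.68 in the mNES line. Summed over its 5 copies, LHCB1 stood at 7342, 7549.6 and 7369.7 TPM in Col-0, 4697, 5007 and 4926 TPM in myb3r1, and 4251, 4411 and 4624 TPM in myb3r4. The double mutant had 4144, 4302 and 4019.7 TPM and the mNES line 5770.0, 4893 and 4720.1 TPM. No library of the other groups came near the Col-0 range, and mNES replicate 1 was the highest of them. The sum fell by 0.61 in myb3r1, 0.75 in myb3r4, 0.84 in the double mutant and 0.54 in the mNES line on the log2 scale (SE 0.0625), which is 1.52-fold, 1.68-fold, 1.79-fold and 1.45-fold lower (adjusted p = 0.000107, 9.27e-06, 6.82e-07 and 0.000148).

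The LHCB2 sum, over 3 copies, stood at 689, 692 and 636 TPM in Col-0, 327, 367 and 346 TPM in myb3r1, and 283, 292 and 300.5 TPM in myb3r4. The double mutant had 358, 375 and 338 TPM and the mNES line 429.9, 359.9 and 385 TPM. Here myb3r4 was the lowest group, below all libraries of the double mutant. Its most abundant copy, LHCB2.2 (AT2G05070), stood at 400.4, 398 and 367 TPM in Col-0 and between 159 and 255 TPM in the other groups. The log2 fold changes against Col-0 were -0.96, -1.20, -0.91 and -0.78 in the same order (SE 0.0631), or 1.94-fold, 2.3-fold, 1.88-fold and 1.72-fold lower. The double mutant stood 0.29 above myb3r4 on the log2 scale (adjusted p = 0.00343), while its LHCB1 sum differed from that of myb3r4 by -0.09 (SE 0.0625, adjusted p = 0.277).

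Within LHCB1 the copies moved by different amounts. LHCB1.1 stood at 308, 335 and 291 TPM in Col-0, 88.5, 103 and 102 TPM in myb3r1, 67.2, 69.3 and 84.3 TPM in myb3r4, 108, 133 and 89.1 TPM in the double mutant and 205, 209 and 217 TPM in the mNES line. All mutant and mNES libraries were below Col-0, and the mNES libraries were above those of every mutant. The log2 fold changes were -1.67, -2.08, -1.51 and -0.56 (SE 0.120), with adjusted p between 2.64e-07 and 0.00646.

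LHCB1.4, the copy most unlike LHCB1.3, stood at 102, 106 and 106 TPM in Col-0, 27.4, 28.5 and 29.8 TPM in myb3r1, 22.7, 25.9 and 32.8 TPM in myb3r4, 14.9, 16.9 and 12.3 TPM in the double mutant and 77.5, 34.5 and 31.1 TPM in the mNES line. All libraries were below Col-0, and those of the double mutant were the lowest. It fell by 1.86, 1.95, 2.80 and 1.25 on the log2 scale (SE 0.255), the last with adjusted p = 0.00489. In the mNES line replicate 1 stood apart, and without it the fall was 1.66. The double mutant was below each single mutant, by 0.94 against myb3r1 (adjusted p = 0.0132) and 0.85 against myb3r4 (adjusted p = 0.0199).

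LHCB1.3, which supplies most LHCB1 transcript, stood at 5079, 5170.1 and 5126 TPM in Col-0, 3601, 3826 and 3745 TPM in myb3r1, 3310.0, 3409 and 3481 TPM in myb3r4, 2764, 2819 and 2656 TPM in the double mutant and 4161, 3442 and 3273 TPM in the mNES line. Its log2 fold changes were -0.46, -0.59, -0.90 and -0.51 (SE 0.0668), and its double mutant libraries lay below all others. In LHCB1.5 the place of the double mutant was turned, with -0.81 in myb3r1, -0.92 in myb3r4 and -0.43 in the double mutant, whose libraries (932 to 987 TPM) lay above those of both single mutants (619 to 766 TPM). The share of LHCB1.5 in the LHCB1 sum was 17.0% to 17.6% in Col-0 and 22.5% to 23.3% in the double mutant, and that of LHCB1.3 was 68.5% to 69.6% and 65.5% to 66.7%. In the single mutants LHCB1.3 made up more, with a mean of 76.4% in myb3r1 and 76.8% in myb3r4.

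**Figure D3:**
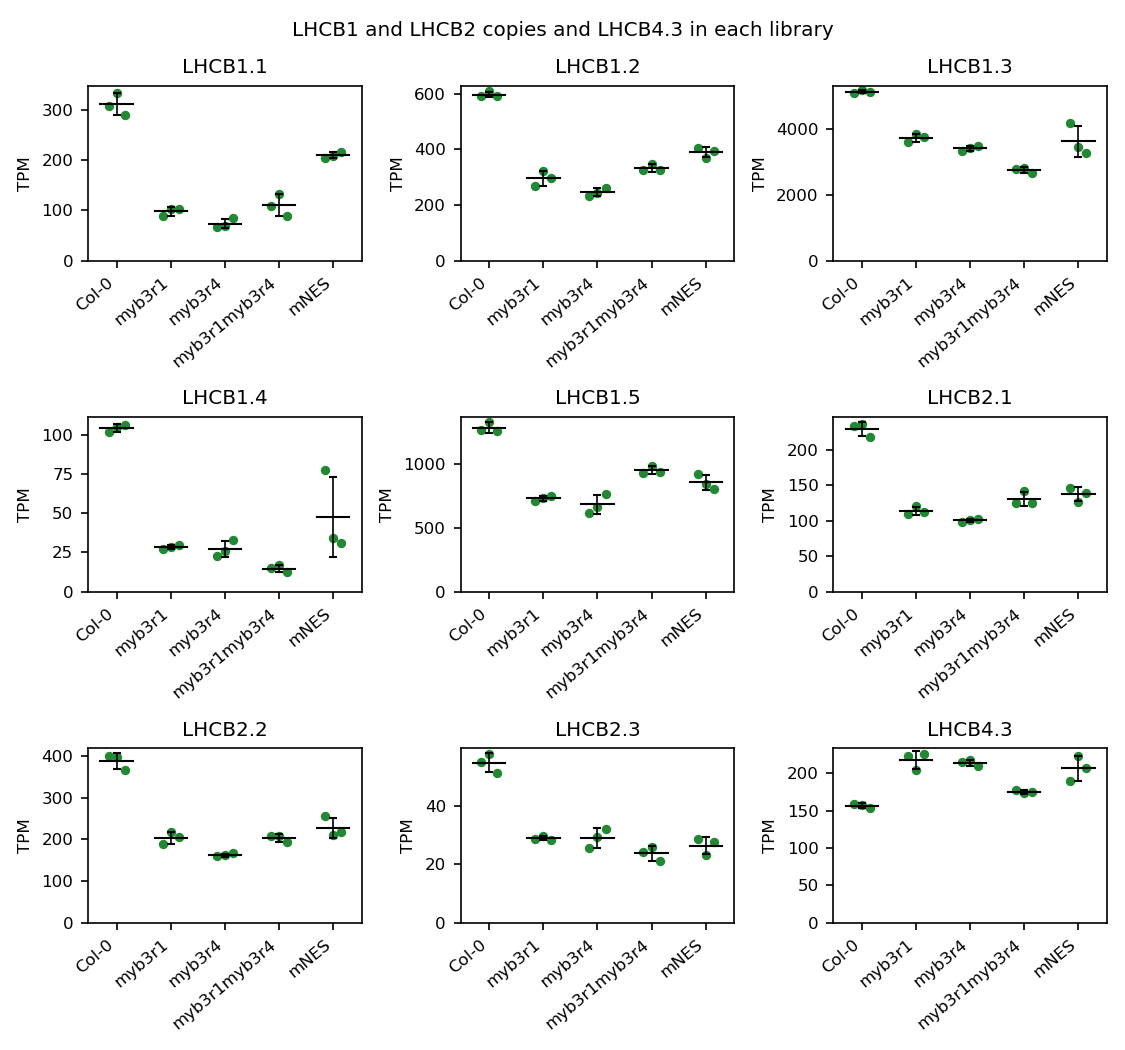
TPM of the 5 LHCB1 copies, the 3 LHCB2 copies and LHCB4.3 in each library (points, 3 per group), with the group mean (long line) and SD (error bar); all axes start at 0. The 8 LHCB1 and LHCB2 copies are highest in Col-0 and LHCB4.3 is lowest there; mNES replicate 1 is the high point of LHCB1.4 at 77.5 TPM.

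LHCB3, the third subunit of the trimers, changed by -0.65, -0.85, -0.54 and -0.59 in myb3r1, myb3r4, the double mutant and the mNES line (SE 0.0492). Of the monomeric antenna, LHCB4.2 changed by -0.35, -0.48, -0.46 and -0.51, LHCB5 by -0.38, -0.47, -0.52 and -0.33, LHCB6 by -0.27, -0.39, -0.38 and -0.27, and LHCB4.1 by -0.18, -0.21, -0.34 and -0.14, all past the threshold. Under median-of-ratios scaling the mNES value of LHCB4.1 was -0.10 and no longer called (adjusted p = 0.0747). LHCB7 was not called in any of the 4, with values between -0.11 and 0.09.

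LHCB4.3 (AT2G40100) was the single antenna gene that rose. Its protein belongs to the LHCB4 family that links trimers to photosystem II, but its coding sequence was only 68.6% and 69.0% identical to those of LHCB4.1 and LHCB4.2, which were 81.9% identical to each other. It stood at 159, 158 and 153 TPM in Col-0, 224, 204 and 226 TPM in myb3r1, 215, 218 and 210.2 TPM in myb3r4, 177, 173 and 174 TPM in the double mutant and 189.7, 223 and 208 TPM in the mNES line. Every library of the other groups was above Col-0, and those of the double mutant were the nearest to it. The log2 fold changes were 0.48, 0.45, 0.16 and 0.40 (SE 0.0509). The call in the double mutant was lost under both other scalings, at 0.11 (adjusted p = 0.105) and 0.13 (adjusted p = 0.0656).

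Of the photosystem I antenna, LHCA1 and LHCA4, which pair with each other in the complex, changed most. LHCA1 stood at 1267, 1295 and 1235 TPM in Col-0, 756, 850.4 and 794 TPM in myb3r1, 722, 738 and 774 TPM in myb3r4, 863, 909 and 832 TPM in the double mutant and 999, 894 and 915 TPM in the mNES line. No library overlapped Col-0, and myb3r4 lay below the double mutant. LHCA1 changed by -0.66, -0.77, -0.55 and -0.44, LHCA4 by -0.60, -0.71, -0.55 and -0.52, LHCA3 by -0.35, -0.41, -0.42 and -0.28, and LHCA2 by -0.23, -0.22, -0.43 and -0.28, all called. LHCA5 and LHCA6, known for joining photosystem I to the NDH complex, fell in the double mutant by 0.22 each. Their values elsewhere lay between 0.03 and 0.11 and were not called.

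**Figure D4:**
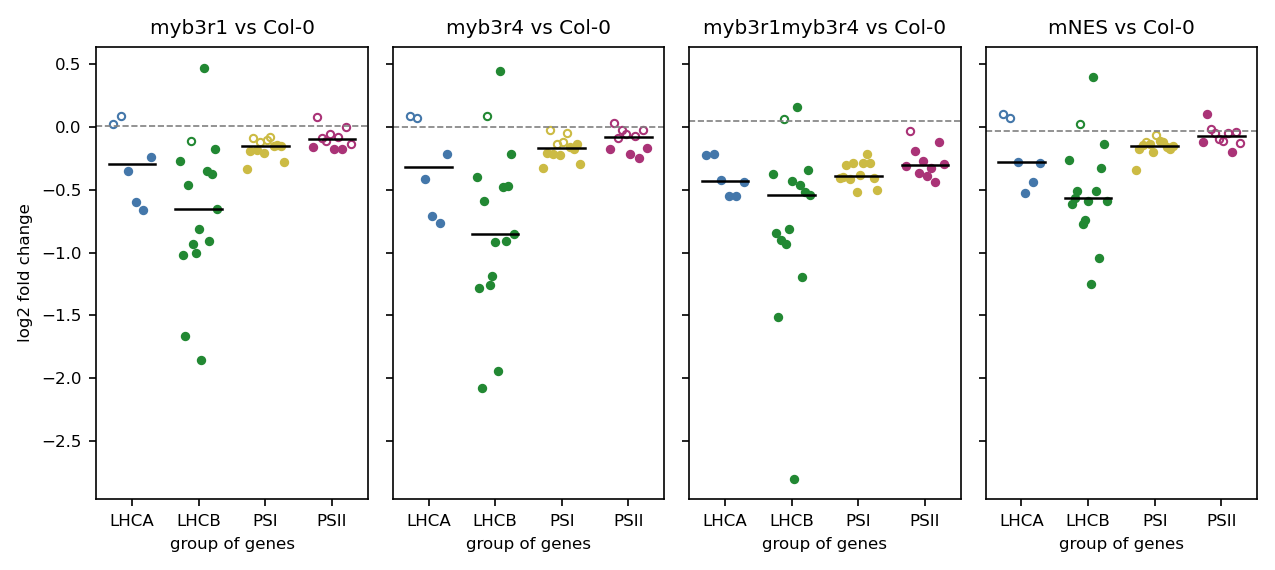
Log2 fold change against Col-0 of each gene by role, one panel per comparison. Filled points passed an adjusted p of 0.05 in limma, open points did not, short lines are medians of a role and the dashed line is the median of all genes tested; LHCB genes spread widest, from -2.80 to 0.16 in the double mutant.

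All 12 photosystem I subunit genes fell in the double mutant, by 0.21 to 0.51, and 8, 8 and 10 of them fell in myb3r1, myb3r4 and the mNES line. In the double mutant 17.1% of all genes were lower, and 27.4% of those with at least 100 TPM. In myb3r1, myb3r4 and the mNES line 3.1%, 3.04% and 9.39% of all genes were lower. Of those with at least 100 TPM, 5.2%, 4.73% and 13.8% were lower in these 3 groups. PSAG, a small subunit beside the LHCA belt, stood at 1102, 1152 and 1090.3 TPM in Col-0 and 770.5, 831 and 741 TPM in the double mutant, with single mutant and mNES libraries between them (936 to 1049 TPM). It fell by 0.51 in the double mutant and by 0.21, 0.22 and 0.20 in myb3r1, myb3r4 and the mNES line (SE 0.0474). Much of the PSAG transcript, 59.9% of its stretches of 31 bases, also belongs to the overlapping locus AT1G55673, so the value is uncertain. PSAN, a lumenal subunit at the plastocyanin side, shared 0.888% and changed by -0.27, -0.29, -0.50 and -0.15.

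PSAD1 and PSAD2, paralogs for the stromal subunit that docks ferredoxin, changed by -0.15, -0.16, -0.21 and -0.12 and by -0.34, -0.33, -0.41 and -0.34. The scarcer copy, PSAD2, thus had the larger values in each comparison. PSAL and PSAO, which take part in docking the mobile antenna to photosystem I, changed by -0.14, -0.18, -0.29 and -0.16 and by -0.19, -0.21, -0.40 and -0.17. PSAK, PSAH1 and PSAH2 were not called in either single mutant but fell in the double mutant, by 0.30, 0.28 and 0.29. For all 3 the double mutant was also lower than each single mutant directly, with log2 differences of -0.28 to -0.15. PSAH2 was close to a call in myb3r4 (-0.14, adjusted p = 0.0587) and was called there under upper-quartile scaling (-0.15, adjusted p = 0.0460). The mNES calls of PSAD1, PSAH1, PSAH2, PSAN and PSAO were lost under both other scalings. Of the remaining subunits, PSAE1, PSAE2 and PSAF fell in the double mutant by 0.40, 0.38 and 0.41, and in myb3r1 and myb3r4 PSAF fell by 0.18 and 0.22 and PSAE1 by 0.15 and 0.13. The call of PSAE1 in myb3r4 was lost under median-of-ratios scaling (adjusted p = 0.0520). PSAH1 shared 49.9% of its stretches of 31 bases with AT3G16130, PSAE1 30.9% with AT4G28755 and PSAH2 21.4% with AT1G52240, so these values are uncertain as well.

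Of the 10 photosystem II subunit genes, 9 fell in the double mutant, by 0.12 to 0.44, and 3, 4 and 2 fell in myb3r1, myb3r4 and the mNES line. In the double mutant 17.1% of all genes were lower, and in the others 3.1%, 3.04% and 9.39%. Of genes with at least 100 TPM, 27.4% were lower in the double mutant, and 5.2%, 4.73% and 13.8% in the others. The count in the mNES line is thus near its background. PSBQ2 and PSBP1, extrinsic proteins of the oxygen-evolving complex, changed by -0.18, -0.24, -0.44 and -0.20 and by -0.16, -0.18, -0.31 and -0.12. PSBQ1, the other PSBQ copy, changed by 0.00, -0.02, -0.12 and -0.04 and was called in the double mutant. PSBO1 and PSBO2, the manganese-stabilising proteins, fell by 0.29 and 0.33 in the double mutant. The small subunit genes PSBW, PSBX and PSBY fell there by 0.39, 0.27 and 0.19. The mNES call of PSBP1 was lost under both other scalings.

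PSBR (AT1G79040), a small subunit needed for stable binding of the extrinsic proteins, stood at 1724, 1764 and 1869 TPM in Col-0, 1612, 1723 and 1639 TPM in myb3r1, 1741, 1765 and 1763 TPM in myb3r4, 1370.2, 1429 and 1356 TPM in the double mutant and 1745, 1631 and 1814 TPM in the mNES line. The double mutant lay below all other libraries, and the ranges of myb3r4 and the mNES line overlapped Col-0. Its log2 fold change was -0.37 in the double mutant (SE 0.0428, adjusted p = 2.37e-05) and -0.11, -0.02 and -0.05 in myb3r1, myb3r4 and the mNES line, none of which was called. PSBS, the sensor of excess light in energy dissipation, was the subunit gene that did not fall in the double mutant (-0.03). It rose by 0.10 in the mNES line (adjusted p = 0.0373), a call lost with no filter, with no trend, with only the groups compared, and without Col-0 replicate 1 or 3, myb3r1 replicate 3, or mNES replicate 2 or 3.

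The double mutant was next set against each single mutant. Against myb3r1, 28 of the 43 genes were lower and 3 higher, with 30.1% of all genes called (12.9% lower, 17.2% higher), and against myb3r4, 26 were lower and 8 higher, with 34.7% of all genes called (14.6% lower, 20.1% higher). Among genes of at least 100 TPM, 26% were lower and 21.2% higher than in myb3r1 (47.2% in all), and 27.3% were lower and 23.7% higher than in myb3r4 (51% in all). The subunit genes were lower only, 19 and 18 of 22. Of the antenna genes 8 were lower and 8 higher than in myb3r4, and 9 were lower and 3 higher than in myb3r1. Against myb3r1 the number higher depended on the scaling, with 1 higher and 10 lower under both other scalings, and it was 1 to 4 with a library left out (1 without myb3r1 replicate 1 or 3 or double mutant replicate 2). Those higher than in myb3r4 were LHCA1 (0.22), LHCA4 (0.16), LHCB1.1 (0.57), LHCB1.2 (0.44), LHCB1.5 (0.48), LHCB2.1 (0.37), LHCB2.2 (0.32) and LHCB3 (0.31). The call of LHCA4 was lost under median-of-ratios scaling (0.11, adjusted p = 0.109).

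Whether the double mutant equalled the sum of the single mutants was tested with an interaction term, the effect of myb3r4 in the myb3r1 background minus its effect in Col-0. It was called for 23 of the 43 genes, 14 above 0 and 9 below, against 12.3% of all genes (6.31% above 0, 5.95% below). Of genes with at least 100 TPM it was called for 25.1%, with 7.82% above 0 and 17.3% below. A value above 0 for a gene that fell means that the double mutant fell by less than the 2 single effects added together. Of the antenna genes 13 were above 0 and 3 below, with a median of 0.37 against 0.03 over all genes, and of the subunit genes 1 was above and 6 below, with a median of -0.02. The 14 above 0 were 14 or 15 with any library left out, while the 9 below were as few as 4, without Col-0 replicate 1 or without myb3r1 replicate 2. The largest values were 2.23 for LHCB1.1 (SE 0.170, adjusted p = 6.58e-06), 1.45 for LHCB1.2, 1.37 for LHCB2.1, 1.3 for LHCB1.5 and 1.25 for LHCB2.2. For LHCB1.3 it was 0.15 (SE 0.0944, adjusted p = 0.310), and for LHCB1.4 it was 1.00 (SE 0.361, adjusted p = 0.0890). The LHCB2 sum gave 1.25 (adjusted p = 4.06e-06) and the LHCB1 sum 0.51 (adjusted p = 0.00261). For LHCB4.3, which rose, the term was -0.77 (adjusted p = 3.35e-05).

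**Figure D5:**
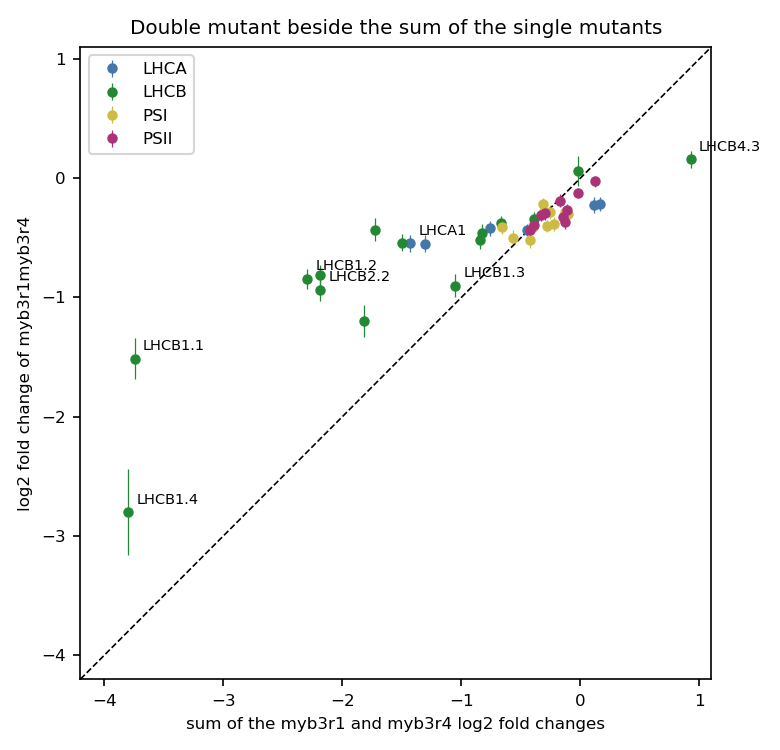
Log2 fold change of the double mutant (vertical) beside the sum of the log2 fold changes of myb3r1 and myb3r4 (horizontal), all against Col-0, one point per gene with the SE of the interaction as error bar. On the dashed line the double mutant equals that sum; LHCB1.1 lies 2.23 above it, LHCB1.3 close to it and LHCB4.3 below it.

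The mNES line was compared with myb3r4, with the limit that its background is not stated. Of the 43 genes 12 were higher and 1, PSAK, lower, where 29.5% of all genes were called (11.6% higher, 17.9% lower). Of genes with at least 100 TPM, 33.2% were called (13.7% higher, 19.5% lower). With the TPM as deposited, the total called among the 43 was thus near its background, though nearly all of it was higher. Under median-of-ratios and upper-quartile scaling 18 and 19 were higher and 0 lower, and 28.5% and 28.4% of all genes were called. Among the 18 and 19 were 13 antenna genes and 5 or 6 subunit genes, and PSAK was no longer called. As deposited, the 12 were PSAN and 11 antenna genes, led by LHCB1.1 at 1.51 (SE 0.120, adjusted p = 2.32e-06), LHCB1.2 at 0.66, LHCB2.2 at 0.49 and LHCB2.1 at 0.44. LHCB1.3 stood at 3310.0 to 3481 TPM in myb3r4 and 3273 to 4161 TPM in the mNES line, which overlap (0.08, adjusted p = 0.371). The count rested partly on single libraries. Without mNES replicate 1, 7 were higher and 1 lower, and the same counts were found without myb3r4 replicate 1. Without mNES replicate 1 LHCB1.1 was at 1.53 and the LHCB2 sum at 0.35 (0.42 with it), both called, while the LHCB1 sum went from 0.21 (adjusted p = 0.0241) to 0.12 (adjusted p = 0.0675).

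Other genes of photosynthesis were read from lists chosen with earlier results of these data known. Of 24 chlorophyll synthesis genes none rose, and 6 fell in myb3r1, 7 in myb3r4, 18 in the double mutant and 9 in the mNES line. Of all genes tested, 3.1%, 3.04%, 17.1% and 9.39% were lower in these comparisons, in that order. Among genes of at least 100 TPM, 5.2%, 4.73%, 27.4% and 13.8% were lower. PORA encodes a light-dependent protochlorophyllide reductase. PORA stood at 13.2, 14.2 and 14.3 TPM in Col-0, 5.25, 5.44 and 6.10 TPM in myb3r1, 4.89, 4.91 and 4.74 TPM in myb3r4, 2.35, 2.2 and 1.82 TPM in the double mutant and 14.6, 7.04 and 7.01 TPM in the mNES line. It was the gene of this list that fell most in the 3 mutants, by 1.24, 1.43 and 2.46, and their libraries did not overlap Col-0. In the mNES line CAO, which makes chlorophyll b, fell most, by 0.51 (SE 0.0867, adjusted p = 0.00159). PORA was not called there, with replicate 1 at the Col-0 level, and without that library it was at -0.94 (adjusted p = 0.000107).

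Of 18 Calvin cycle genes 2 rose and 1 fell in myb3r1, 4 rose and 1 fell in myb3r4, 1 rose and 14 fell in the double mutant, and 5 rose and 1 fell in the mNES line. Of all genes tested, 3.16%, 4.55%, 24.5% and 7.6% were higher in that order, and 3.1%, 3.04%, 17.1% and 9.39% were lower. Among genes of at least 100 TPM, 7.71%, 10%, 32.5% and 14.9% were higher, and 5.2%, 4.73%, 27.4% and 13.8% were lower. In either direction 12.9% of these were called in myb3r1 and 28.7% in the mNES line, near the Calvin cycle counts there. The same shares stand beside the counts of the next lists. RBCS2B, 1 of several similar copies for the Rubisco small subunit and so uncertain as a single value, was the largest riser, at 0.32, 0.41, 0.15 and 0.27. The largest falls were CP12-1 in myb3r1 (-0.15), FBA1 in myb3r4 and in the mNES line (-0.16 in both) and GAPA2 in the double mutant (-0.37). Of 14 genes for electron transport and ATP synthase, ferredoxin FD1 alone rose in each comparison, by 0.33, 0.25, 0.23 and 0.30. None of them fell in the single mutants, 11 did in the double mutant (FD2 most, -0.32) and 2 did in the mNES line (PETE1 most, -0.23). Of 21 genes for LHC-like, accessory and membrane insertion proteins none was called in either single mutant. In the double mutant 14 fell, with the insertase ALB3 lowest at -0.40, and 1 rose, while in the mNES line 4 rose and none fell. ELIP1, an early light-induced protein, rose by 0.76 in the double mutant and by 2.1 in the mNES line.

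Among 23 regulators of photosynthesis and light responses, 1 rose and 5 fell in myb3r1, 3 rose and 4 fell in myb3r4, 3 rose and 6 fell in the double mutant, and 3 rose and 7 fell in the mNES line. The background shares of all genes called were 6.26%, 7.59%, 41.6% and 17% in that order, so the count in the double mutant is near its background. GLK1, an activator of antenna and chlorophyll genes, stood at 28.1, 26.9 and 27.4 TPM in Col-0, 31.6, 31.7 and 33.3 TPM in myb3r1, 32.3, 32.0 and 29.2 TPM in myb3r4, 37.2, 35.2 and 40.4 TPM in the double mutant and 22.6, 22.7 and 22.9 TPM in the mNES line. It rose in myb3r1 (0.23) and the double mutant (0.45) and fell in the mNES line (-0.27), and none of the 4 ranges overlapped Col-0. In myb3r4 it missed the threshold (0.18, adjusted p = 0.0508). Its paralog GLK2 fell in myb3r1 (-0.48) and in myb3r4 (-0.31, adjusted p = 0.0495), and was at -0.20 and -0.13, not called, in the double mutant and the mNES line.

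HY5, a light-response activator, rose in myb3r4 (0.43), the double mutant (0.49) and the mNES line (0.81), and its relative HYH was the largest riser of the list in myb3r4 (0.61) and the mNES line (0.84). The largest falls were those of the phytochrome-interacting factors PIF4 in myb3r1 (-0.88) and the double mutant (-1.05), and PIF5 in myb3r4 (-0.86) and the mNES line (-0.51). Of the 9 clock genes tested of 11 listed, 3 fell in each of the single mutants, with PRR5 lowest in myb3r1 (-1.23) and PRR7 in myb3r4 (-0.62). In the double mutant CCA1 (-0.63) and others, 3 in all, fell and TOC1 rose (0.20), and in the mNES line 2 fell (PRR5 most, -1.15). Of all genes tested, 6.26% were called in myb3r1, 7.59% in myb3r4, 41.6% in the double mutant and 17% in the mNES line. The clock gene counts in the double mutant and the mNES line are thus near their background. The morning genes were scarce in all groups, CCA1 at 0.514 to 1.81 TPM and LHY, below the filter, at 0.303 to 1.09 TPM. The labels give no hour of harvest, and the part of the clock genes in the antenna values was not tested.

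Sequence before the gene starts was read in 250-base windows of the RefSeq genome TAIR10.1 on both strands. The motifs were CCAAT (the CCAAT box), CACGTG (the G-box), GATAAG (the I-box), AAATATCT (the evening element), TATAAA (the TATA box) and AACGG, the core of the MSA element that MYB3R proteins are known to bind. No motif contains another, though matches can share bases. CCAAT occurred in 19 of 21 antenna windows (90.5%), 9 of 22 subunit windows (40.9%) and 46.0% of 27443 windows of protein-coding nuclear genes. The G-box occurred in 9 of the 43 windows (20.9%, against 6.49% of all), the I-box in 9 (against 12.3%), the TATA box in 19 (44.2%, against 47.3%) and the evening element in 1 (LHCA5, against 4.79% of all). The MSA core occurred in 6 windows (14.0%, against 20.6% of all), those of LHCA6, LHCB1.1, LHCB7, PSBO2, PSBP1 and PSBS. These matches are descriptions of letters, not of binding.

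The last 150 bases before the start are printed for the copies with the largest falls, LHCB1.1 (chr1:10475970-10476119, minus strand) and LHCB1.4 (chr2:14524457-14524606, plus strand), for LHCB2.2 (chr2:1800473-1800622, minus strand), whose window holds 3 CCAAT matches, and for LHCB4.3 (chr2:16745478-16745627, plus strand), the gene that rose. Each reads 5′ to 3′ towards the gene, and capitals mark matches to the motifs, on either strand.
LHCB1.1: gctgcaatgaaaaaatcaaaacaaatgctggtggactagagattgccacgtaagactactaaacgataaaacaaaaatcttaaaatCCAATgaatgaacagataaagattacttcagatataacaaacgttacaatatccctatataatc
LHCB1.4: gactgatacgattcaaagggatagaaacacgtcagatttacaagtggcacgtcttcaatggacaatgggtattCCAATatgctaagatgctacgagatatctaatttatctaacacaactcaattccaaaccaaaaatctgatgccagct
LHCB2.2: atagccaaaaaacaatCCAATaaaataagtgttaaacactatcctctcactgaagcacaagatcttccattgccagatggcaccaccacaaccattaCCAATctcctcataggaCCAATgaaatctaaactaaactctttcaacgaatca
LHCB4.3: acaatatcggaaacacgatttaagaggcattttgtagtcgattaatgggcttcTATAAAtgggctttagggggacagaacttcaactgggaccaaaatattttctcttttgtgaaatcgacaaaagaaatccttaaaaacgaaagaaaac
In these 150 bases LHCB1.1 and LHCB1.4 have 1 CCAAT match each, 64 and 77 bases before the start. LHCB4.3 has a TATA match 97 bases before it, and its CCAAT match lies farther out.

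The lists of cell type markers were read beside these results, because in pooled tissue fewer cells of a type and less RNA per cell cannot be told apart. In myb3r1 and myb3r4 few markers were called, a share near or below that of all genes tested (6.26% and 7.59%). Of 10 meristem markers tested 0 and 1 rose and none fell, of 9 vascular markers 1 and 0 fell, of 8 stomatal lineage markers 0 and 1 fell, of 5 pollen markers 1 and 0 fell, and of 4 epidermis markers 1 and 0 rose. The 8 anther and tapetum markers and the 3 guard cell markers had no call in either. Vascular sums were lower in all 6 libraries of the single mutants, at 142 to 156 TPM in myb3r1 and 149 to 156 TPM in myb3r4 against 159.7 to 169 TPM in Col-0. Epidermis sums were 1131 to 1159 TPM in myb3r1 and 1036 to 1146 TPM in myb3r4 against 984 to 1085 TPM in Col-0, and anther and tapetum sums 675 to 845 TPM and 542 to 642 TPM against 593 to 710.0 TPM. Summed levels ran from 347 to 375 TPM for the meristem list in the 2 single mutants (332 to 342 TPM in Col-0), 72.3 to 83.4 TPM for the stomatal lineage (76.4 to 79.4 TPM in Col-0) and 11.6 to 14.7 TPM for guard cells (12.2 to 13.6 TPM in Col-0). The pollen list summed to 161 to 316 TPM in them, below the 360.1 to 442 TPM of Col-0.

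More markers moved in the double mutant and the mNES line, in opposite ways for the anther. More of all genes were called there too, 41.6% in the double mutant (17.1% lower, 24.5% higher) and 17% in the mNES line (9.39% lower, 7.6% higher). In the double mutant 7 of 8 anther and tapetum markers rose and their sum was 1057 to 1275 TPM, against 593 to 710.0 TPM in Col-0, and all 5 pollen markers fell, to a sum of 33.7 to 80.8 TPM. Also there 5 meristem markers rose and WUS fell, 4 of 4 epidermis markers rose, 7 vascular markers fell and 1 rose, and 4 stomatal lineage markers fell. The vascular sum was 110.1 to 124 TPM (159.7 to 169 TPM in Col-0), the epidermis sum 1300.0 to 1378 TPM (984 to 1085 TPM in Col-0) and the stomatal lineage sum 62.6 to 66.7 TPM. In the mNES line 6 anther markers fell, to a sum of 299 to 489.0 TPM, and 3 meristem, 2 epidermis, 1 vascular and 1 stomatal lineage markers fell, while 1 vascular marker rose. There the meristem sum was 285 to 316 TPM and the epidermis sum 804 to 841 TPM. No guard cell marker was called in either group, and no pollen marker in the mNES line. CLV3 was the one marker at 0 in some libraries. What part these shifts in tissue markers have in the values of the antenna and subunit genes was not tested.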

How the data were processed

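RNA-seq was measured in 15 libraries of dissected inflorescence meristems, 3 in each of 5 groups, and groups were taken from the sample labels. The deposited values are TPM per gene, made by the authors; the submitters' processing notes name Salmon, FastQC and TAIR10, with versions not given in the sources used here. TPM keeps no read depth, so the depth is unknown and no counting interval is given. Genes at 1 TPM or more in at least 3 libraries were tested (21737 of 33326; 4636 were at 0 everywhere). limma 3.58.1 (R 4.3.3) was fitted to log2(TPM + 0.5) with 5 group means over all libraries, a variance trend, 10 residual degrees of freedom, two-sided tests and Benjamini-Hochberg adjustment over all genes, with a threshold of 0.05. A fold change on this scale understates the change of low genes. The fit was tested on simulated data. Alternatives were other pseudocounts, filters and scalings, no trend, a replicate block, fewer groups and each library left out. The members and lists were chosen with earlier results of these data known. All 43 genes could be named, and of each pathway list the largest called rise and fall, plus GLK1, GLK2, HY5, CCA1 and LHY. Plastid-encoded genes were not analysed here. Positions and sequences came from RefSeq TAIR10.1, where all 43 genes matched by locus identifier, and coding sequences were aligned with MAFFT 7.526. Python 3.11.15, pandas 2.3.3 and matplotlib 3.10.9 were used.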

Additional observations from a re-analysis of the deposited data

Results flagged for a closer look

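The effect of myb3r4 differed between the myb3r1 and Col-0 backgrounds for 23 of the 43 genes and for both sums, by the interaction term in limma. It differed for 12.3% of all genes tested (6.31% above 0, 5.95% below). Of genes with at least 100 TPM it differed for 25.1% (7.82% above 0, 17.3% below). Above 0 were LHCB1.1 (2.23), LHCB1.2 (1.45), LHCB2.1 (1.37), LHCB1.5 (1.3), LHCB2.2 (1.25), LHCB3 (0.96), LHCA1 (0.88), LHCA4 (0.76), LHCB2.3 (0.63), LHCB4.2 (0.37), LHCA3 (0.34), LHCB5 (0.33), LHCB6 (0.29) and PSAD2 (0.25). The LHCB1 sum was at 0.51 and the LHCB2 sum at 1.25. Below 0 were LHCB4.3 (-0.77), LHCA5 (-0.38), LHCA6 (-0.34), PSBR (-0.24), PSAK (-0.19), PSBO2 (-0.18), PSAH1 (-0.16), PSBX (-0.16) and PSBS (-0.15). The calls of PSBS and PSBX were lost under upper-quartile scaling. Without Col-0 replicate 1 only 4 genes were called below 0.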

How the results depend on the processing

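The values rest on TPM without depth, 3 libraries per group and shared reads among copies, so single LHCB1 and LHCB2 copies and small subunit changes are the least certain. The numbers of the 43 genes called stayed within 1.5 times under other pseudocounts, filters, scalings and no trend. The exception among settings that keep all replicates was the mNES line against Col-0. When only the groups compared were fitted, 20 were called there (19 lower, 1 higher). The share of all genes called was also lower in that fit, 10.9% against 17% in the main fit. The cause was not tested. Leaving out 1 library at a time gave 19 to 29 called in myb3r1 and 25 to 30 in myb3r4. The 19 came without Col-0 replicate 2, where 3.06% of all genes were called. The same refits gave 40 to 41 in the double mutant and 23 to 34 in the mNES line. They gave 26 to 32 for the double mutant against myb3r1 and 28 to 34 against myb3r4. For the mNES line against myb3r4 they gave 8 to 15, for the interaction 18 to 24, and for the test over all groups 41 to 42. The LHCB1 sum ranged from -0.63 to -0.58 in myb3r1, -0.78 to -0.72 in myb3r4, -0.86 to -0.81 in the double mutant and -0.63 to -0.48 in the mNES line. With the replicate block 29, 30, 41 and 32 genes were called in myb3r1, myb3r4, the double mutant and the mNES line; same-numbered libraries did not deviate together (0 of 30 pairs with a correlation over 0.1, range -0.126 to 0.0885). In the comparisons with Col-0, values that changed sign were small and not called. With 1 library left out, LHCA6 in myb3r1 ranged from -0.0249 to 0.0721, PSBQ1 in myb3r1 from -0.0173 to 0.0173, PSAK in myb3r4 from -0.0519 to 0.0054, PSBR in myb3r4 from -0.0481 to 0.00992, LHCB7 in the mNES line from -0.0131 to 0.0836 and PSBY in the mNES line from -0.0311 to 0.0178. Under median-of-ratios and upper-quartile scaling PSBQ1 in myb3r1 was -0.00501 and -0.00185, and PSBY in the mNES line 0.0215 and 0.0114. Under these scalings further uncalled values changed sign in the comparisons with myb3r4 and in the interaction. Leaving out mNES replicate 1 was chosen for the comparison with myb3r4 after the data were seen, and there LHCA3, LHCA4, LHCB5, LHCB6 and PSAN were no longer called.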
